A study of Mus musculus with 8 samples.

Results

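RNA sequencing compared the limbal rim, the ring of tissue where the transparent cornea meets the conjunctiva and sclera, with the corneal button, the central cornea, of wild type mice. The genes of the insulin-like growth factor (IGF) axis were taken as the rows of the deposited comparison whose gene name was that of 1 of 10 members: the ligands Igf1 and Igf2, the receptors Igf1r and Igf2r, and the binding proteins Igfbp2, Igfbp3, Igfbp4, Igfbp5, Igfbp6 and Igfbp7. All 10 were present, out of 17442 named genes with reads. Per the study's methods the mice were young adults of the C57BL/6J line, no treatment is named, and rims and buttons from several eyes were each pooled before RNA extraction. The labels number 4 samples per tissue (L001 to L004, the usual way to name lanes of a sequencer), but the deposited values support only 1 library per tissue. No difference between the tissues therefore has a replicate check, no p-value was computed, and the 95% intervals given below are exact intervals of counting error only.

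The IGF axis is a growth factor system in which secreted ligands, receptors on the cell surface and secreted binding proteins act together. IGF1 and IGF2 both activate the tyrosine kinase IGF1R, which drives growth and survival through the PI3K-AKT and MAPK branches, while IGF2R carries IGF2 to lysosomes for breakdown. The binding proteins hold the ligands in the extracellular space, can restrain or prolong their action, and are cut by proteases that set the ligands free. IGFBP7 binds IGFs only weakly and is best known as a matrix protein around blood vessels.

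Reads of each library were worked back from the deposited means, and normalized reads are these reads divided by the size factor of the library. Named genes took 26104317 reads of the cornea library and 21182025 of the limbal one. Members took 19087 reads, or 0.0731%, of the cornea and 43137 reads, or 0.204%, of the limbus library. Of the genes that check the tissue labels, Krt12, the keratin of differentiated corneal epithelium, had 1137735 cornea and 233324 limbus reads. Kera, which encodes the corneal proteoglycan keratocan, had 12119 and 1423 reads, and Krt15, a keratin of the limbal basal epithelium, had 37738 and 353826. These 3 genes followed the labels, but not all genes of the cell type lists below did. By at least 2-fold, the corneal epithelium list with Krt12 had 3 of 8 genes corneal and 1 limbal. That limbal gene was Krt14, at 9952 cornea and 53574 limbus reads, a keratin that the study anticipated to be higher in the limbus. The keratocyte list with Kera had 2 of 8 corneal and 2 limbal. The limbal library also carried more reads of other eye tissues, as described with the cell type lists below.

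The promoters of 4 members are shown because they mark the range of the family: Igfbp6 had the highest limbal ratio, Igfbp4 a TATA motif close to its start, Igfbp7 the most GC boxes, and Igf1r the ratio nearest to 0. Each is the 250 bases before a transcription start in RefSeq, build GRCm38.p6, written 5′ to 3′ on the strand of the gene, with TATAAA and GGGCGG on either strand in capitals.
Igfbp6, chr15:102143936-102144185, plus strand: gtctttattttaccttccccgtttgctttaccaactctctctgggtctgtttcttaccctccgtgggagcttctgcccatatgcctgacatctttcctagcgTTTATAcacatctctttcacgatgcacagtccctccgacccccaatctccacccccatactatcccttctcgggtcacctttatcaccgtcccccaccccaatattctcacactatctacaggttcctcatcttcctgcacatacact
Igfbp4, chr11:99040994-99041243, plus strand: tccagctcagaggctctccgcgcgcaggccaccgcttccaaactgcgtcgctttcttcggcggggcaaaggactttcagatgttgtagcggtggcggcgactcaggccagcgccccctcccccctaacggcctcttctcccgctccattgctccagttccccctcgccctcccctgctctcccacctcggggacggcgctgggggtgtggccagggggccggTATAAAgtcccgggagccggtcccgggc
Igfbp7, chr5:77408046-77408295, minus strand: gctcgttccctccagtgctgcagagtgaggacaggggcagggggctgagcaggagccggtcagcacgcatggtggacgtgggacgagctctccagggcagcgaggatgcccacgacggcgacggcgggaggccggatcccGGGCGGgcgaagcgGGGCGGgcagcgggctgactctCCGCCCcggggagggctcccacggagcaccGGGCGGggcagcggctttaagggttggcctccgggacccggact
Igf1r, chr7:67952007-67952256, plus strand: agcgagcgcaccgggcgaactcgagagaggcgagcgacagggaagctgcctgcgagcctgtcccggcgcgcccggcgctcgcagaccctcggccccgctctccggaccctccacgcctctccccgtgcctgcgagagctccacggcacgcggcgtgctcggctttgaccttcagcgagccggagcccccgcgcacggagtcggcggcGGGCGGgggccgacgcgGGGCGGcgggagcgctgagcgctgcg
Igfbp7 held 4 copies of GGGCGG, the first letter lying 110, 96, 74 and 44 bases before the start, and Igf1r held 2, at 43 and 26 bases. The TATAAA of Igfbp4 began 28 bases before the start, whereas that of Igfbp6 lay on the other strand at 148 bases.

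Motifs were counted in windows from 250 bases before to 50 bases after each start, in 14 such promoters of the 10 members. TATAAA was found in 2 of the 14 promoters, those of Igfbp4 and Igfbp6, and in 13.6% of the 32851 promoters of all genes. GGGCGG was found in 6 of the 14, belonging to the 5 members Igf1r, Igf2, Igf2r, Igfbp2 and Igfbp7, and in 35.7% of all promoters. The promoters also ranged widely in CpG dinucleotides, from 48 in Igf1r, 37 in Igfbp3 and 34 in Igf2r down to 8 in Igfbp6, 6 in Igf1 and 2 in the poorest of the Igf2 promoters, beside a median of 7 over all promoters. Members with GGGCGG spanned the ratios given below, from Igf1r to Igfbp7. Both members with TATAAA were over 2-fold higher in the limbus, as were 7 of the 10 members in all. These letter matches describe the sequence and do not show that a factor binds there.

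Most of the family had a higher level in the limbus than in the cornea. Of the 10 members, 7 were at least 2-fold higher in the limbus, a size reached by 18.0% of all genes over a filter of 10 mean normalized reads (13932 genes), which all 10 members passed. None was at least 2-fold higher in the cornea, where the share of all genes was 8.88%. The filter is on the mean of both libraries. Igfbp3 and Igfbp6, at 4.84 and 5.80 normalized reads in the cornea, passed it only through the limbus. By counting error alone, 9 members were higher in the limbus (36.0% of all genes) and none in the cornea (40.5% of all genes), and the interval of Igf1r included 0. The median log2 ratio of limbus over cornea was 2.40 over the members and -0.04 over all 13932 genes. Both ligands and 5 of the 6 binding proteins passed 2-fold, and neither receptor did. In bulk tissue, fewer cells of a type and less RNA per cell cannot be told apart.

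**Figure D1:**
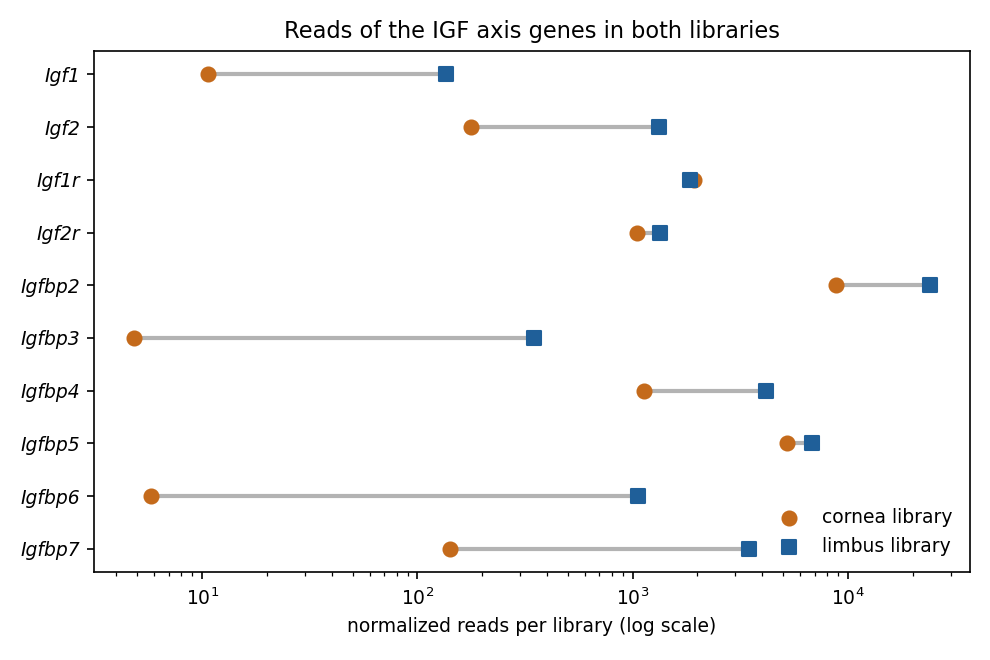
Normalized reads of the 10 members in the cornea library (orange circles) and the limbus library (blue squares) on a log axis, with a grey line joining the libraries of each gene. Igfbp3 and Igfbp6 lie at 4.84 and 5.80 in the cornea and at 348 and 1058 in the limbus, whereas the symbols of Igf1r almost coincide at 1923 and 1841.

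Both ligand genes had more reads in the limbus. Igf1 (chr10:87858265-87937042, plus strand), the ligand best known as the mediator of growth hormone, had 11 cornea and 131 limbus reads. In normalized reads this was 10.6 against 135, a 12.7-fold higher level in the limbus with a log2 ratio of 3.67 (95% interval 2.78 to 4.71). The width of this interval reflects the 11 reads in the cornea. Igf2 (chr7:142650766-142666816, minus strand), the imprinted fetal growth factor, had 183 cornea and 1278 limbus reads. Its normalized reads were 177 and 1321, a 7.46-fold higher level in the limbus with a log2 ratio of 2.90 (2.68 to 3.13).

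The intervals of the ligands' ratios overlapped, so the data do not rank the difference of Igf1 above that of Igf2. Igf2 was the more abundant ligand in both libraries. Per kilobase of exons its level was 30.9 normalized reads (cornea) and 231 (limbus), against 1.07 and 13.7 for Igf1. Igf2 thus stood 28.8 times above Igf1 in the cornea and 16.9 times in the limbus. Exons of Igf2 overlap Gm49394 on the same strand and Igf2os on the opposite strand, and whether strand was used in counting is not given in the sources used here. Igf2os (listed as Igf2as) had only 7 cornea and 5 limbus reads. H19, the noncoding RNA next to Igf2 in the same imprinted cluster, lies 72622 bases away and had 5 cornea and 290 limbus reads, a log2 ratio of 5.95 (4.71 to 7.59).

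Neither receptor gene differed by as much as 2-fold. Igf1r (chr7:67952827-68233668, plus strand), the signaling receptor for both ligands, had 1988 cornea and 1781 limbus reads. After normalization these were 1923 and 1841, and the log2 ratio of -0.06 had an interval of -0.16 to 0.03, so that no difference was detectable at this depth under the deposited scaling. Under scaling to total reads, which raised every log2 ratio by 0.21, the value for Igf1r became 0.14 (0.05 to 0.24). The direction for Igf1r thus depends on the scaling.

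Igf2r (chr17:12682406-12769664, minus strand), the receptor that clears IGF2 and also sorts lysosomal enzymes, had 1082 cornea and 1301 limbus reads. Normalized, these were 1047 and 1345, a 1.28-fold higher level in the limbus with a log2 ratio of 0.36 (0.24 to 0.48). This is larger than counting error but lies within the interquartile range of all genes, which ran from -0.50 to 0.53. Per kilobase of exons, Igf1r was at 115 and Igf2r at 112 in the cornea, where their intervals overlapped, and at 110 and 144 in the limbus. The level of Igf1r relative to Igf2r was 1.02 in the cornea and 0.759 in the limbus. When the longest transcript was used as the length, the limbal order of the receptors turned, with a log2 level of Igf1r over Igf2r of 0.09 in place of a value below 0.

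**Figure D2:**
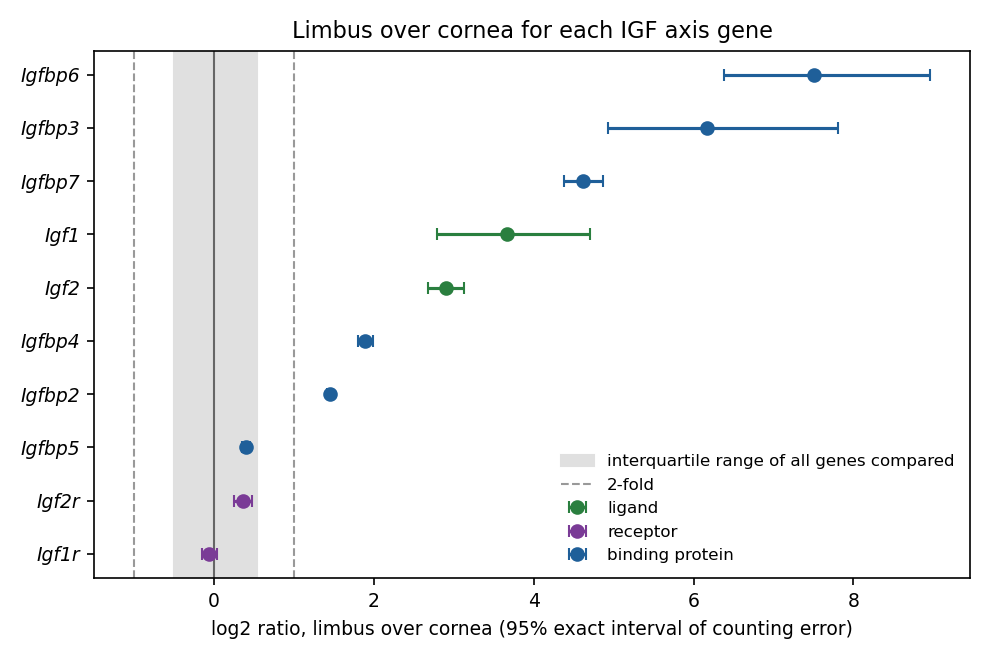
Log2 ratio of limbus over cornea for each member (points, colored by role), with 95% exact intervals of counting error as horizontal bars, the interquartile range of all 13932 genes as the grey band and 2-fold as dashed lines. Of the 10 members, 7 lie to the right of the upper 2-fold line, and Igfbp5, Igf2r and Igf1r lie inside the band.

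The highest ratios of the family were those of Igfbp6 and Igfbp3. Igfbp6 (chr15:102144362-102149511, plus strand), which prefers IGF2 over IGF1, had 6 cornea and 1023 limbus reads. Normalized reads were 5.80 and 1058, a 182-fold higher level in the limbus with a log2 ratio of 7.51 (6.38 to 8.96). By ratio it ranked 15 among the 13932 genes. Igfbp3 (chr11:7206086-7213923, minus strand), the main carrier of IGFs in blood, had 5 cornea and 337 limbus reads. Its normalized reads were 4.84 and 348, a 72.0-fold higher level in the limbus with a log2 ratio of 6.17 (4.93 to 7.80) and rank 57. Both genes were thus close to the floor of 3 reads in the cornea, and their intervals overlapped, so the data do not tell their ratios apart.

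Igfbp7 (chr5:77349240-77408041, minus strand) was also far higher in the limbus, with 146 cornea and 3354 limbus reads. Normalized reads were 141 and 3467, a 24.5-fold higher level with a log2 ratio of 4.62 (4.38 to 4.87) and rank 205. The interval is narrow because reads were many in both libraries. The last exon of Igfbp7 overlaps that of Polr2b on the opposite strand, a gene for an RNA polymerase subunit. Polr2b had 2132 cornea and 1285 limbus reads, a log2 ratio of -0.63 (-0.74 to -0.53), which is the opposite direction to Igfbp7.

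Igfbp4 and Igfbp2 differed by smaller folds at high counts. Igfbp4 (chr11:99041244-99054392, plus strand), a binding protein that mostly restrains IGF action until the protease PAPP-A cuts it, had 1162 cornea and 4042 limbus reads. Its normalized reads were 1124 and 4178, a 3.72-fold higher level in the limbus with a log2 ratio of 1.89 (1.80 to 1.99). Igfbp2 (chr1:72824503-72852474, plus strand) was the member with the most reads, 9137 cornea and 23285 limbus reads. Normalized, these were 8839 and 24071, a 2.72-fold higher level in the limbus with a log2 ratio of 1.45 (1.41 to 1.48). Both intervals lay above 2-fold and did not overlap each other.

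Igfbp5 (chr1:72857932-72874884, minus strand), a binding protein that adheres to extracellular matrix, was the only binding protein under 2-fold. It had 5367 cornea and 6605 limbus reads, or 5192 and 6828 normalized reads, a 1.32-fold higher level in the limbus. Its log2 ratio of 0.40 (0.34 to 0.45) overlapped that of Igf2r. Igfbp2 and Igfbp5 lie tail to tail on chromosome 1 with 5457 bases between them, and the intervals of their ratios did not overlap. Igfbp3 lies 3539 bases from Igfbp1, the liver binding protein, which was listed at 0 in the comparison.

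**Figure D3:**
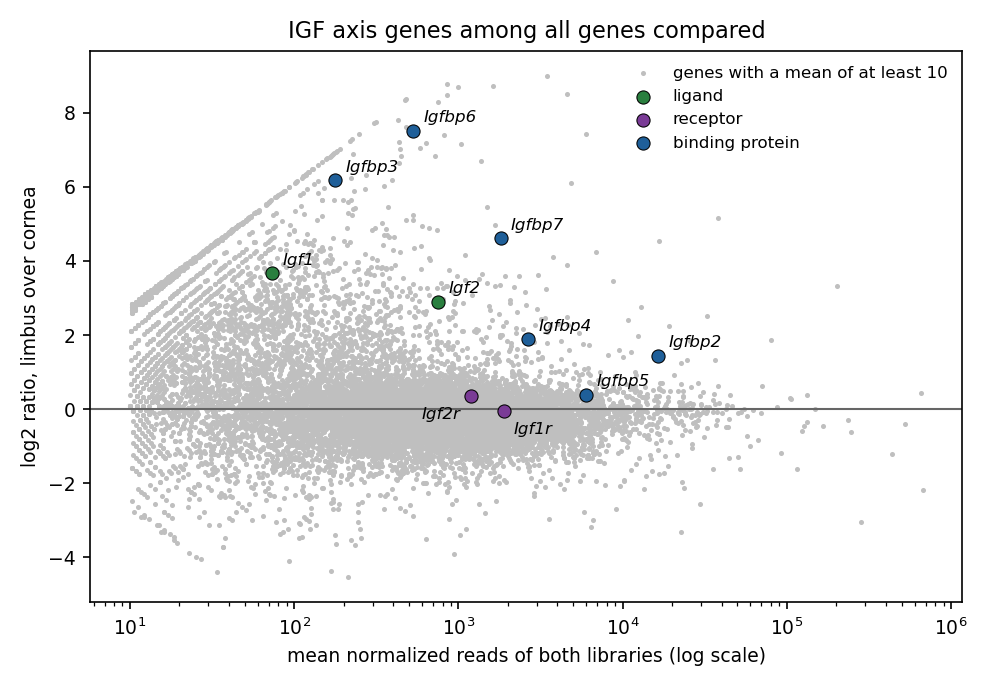
Log2 ratio of limbus over cornea against the mean normalized reads of both libraries (log axis) for 13932 genes over the filter of 10 (grey) and the 10 members (colored by role), where a library under 3 reads was set to 3 reads. Igfbp6, Igfbp3 and Igfbp7 lie near the upper edge at their means of 532, 177 and 1804, while Igf1r and Igf2r lie in the dense center.

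In order of the ratio, the members ran from Igfbp6 through Igfbp3, Igfbp7, Igf1, Igf2, Igfbp4, Igfbp2, Igfbp5 and Igf2r to Igf1r. The intervals of neighbors overlapped for Igfbp6 and Igfbp3, for Igfbp7 and Igf1, for Igf1 and Igf2, and for Igfbp5 and Igf2r, and did not overlap for the other neighbors. In all, 4 members, Igfbp6, Igfbp3, Igfbp7 and Igf1, were over 10-fold higher in the limbus. Igf1 was the lowest of them, and 3.36% of all 13932 genes had a higher ratio than Igf1. The share of all genes over 10-fold lies between this value and the 6.74% with a higher ratio than Igf2. Of these 4, only Igfbp7 had more than 11 reads in the cornea.

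Levels between genes were compared per kilobase of the union of exons in the GENCODE annotation of GRCm38. In the cornea library, Igfbp2 had the highest level at 4785 normalized reads per kilobase, followed by Igfbp5 at 864 and Igfbp4 at 255. Next came Igfbp7 at 117, Igf1r at 115 and Igf2r at 112, whose intervals overlapped from one to the next, and then Igf2 at 30.9. Igfbp6 at 5.22, Igfbp3 at 1.55 and Igf1 at 1.07 stood last, again with overlapping intervals between neighbors. The cornea thus held mainly Igfbp2 and Igfbp5 among the members.

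In the limbus, Igfbp2 was again highest at 13032 normalized reads per kilobase, and Igfbp7 at 2868 came next. Igfbp5 followed at 1137, then Igfbp6 at 951 and Igfbp4 at 946, whose intervals overlapped. Igf2 at 231 and Igf2r at 144 stood above Igfbp3 at 111 and Igf1r at 110, which could not be told apart by counting error. Igf1 at 13.7 was lowest. Both Igfbp7 and Igfbp6 therefore stood higher in the order of the limbus than in that of the cornea.

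**Figure D4:**
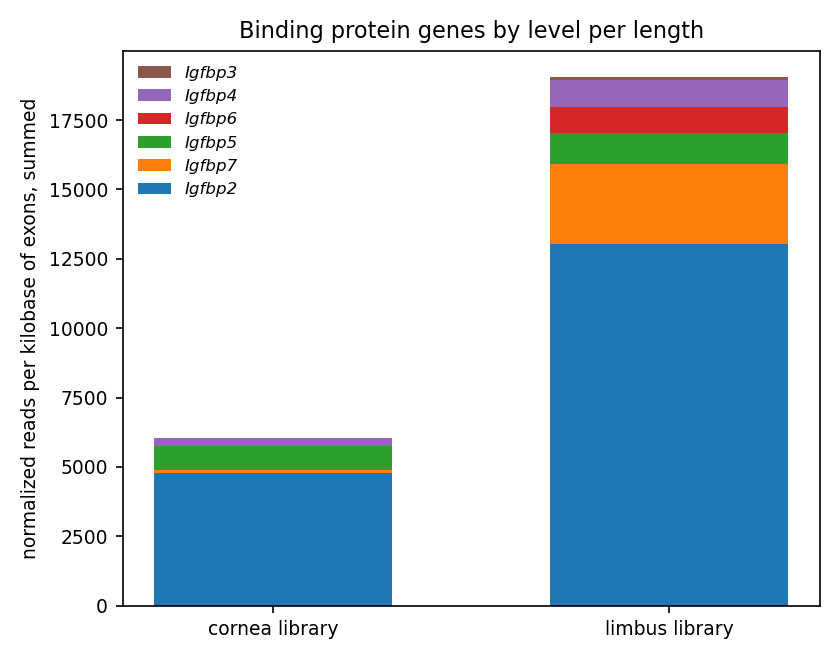
Normalized reads per kilobase of exons for the 6 binding protein genes, stacked for the cornea library and the limbus library. The stacks reach 6028 (cornea) and 19046 (limbus), and Igfbp7 (orange) makes up 1.94% of the first and 15.1% of the second.

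Summed per kilobase, the binding proteins came to 6028 (cornea) and 19046 (limbus) normalized reads, a 3.16-fold difference. The ligands summed to 32.0 and 245, a 7.64-fold difference, and the receptors to 227 and 254, a 1.12-fold difference. Binding protein transcripts thus outnumbered ligand transcripts per length in both libraries. Igfbp2 made up 79.4% of the binding protein sum in the cornea and 68.4% in the limbus. Igfbp5 made up 14.3% and 5.97%, although its own level was higher in the limbus, and Igfbp7 made up 1.94% and 15.1%. For Igfbp6 the shares were 0.0866% and 4.99%, for Igfbp3 0.0256% and 0.584%, and for Igfbp4 4.22% and 4.97%. These shares describe transcripts and depend on the length used, and they say nothing about the secreted proteins.

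Among the genes that act around the ligands, most were listed at 0 or near it. Of 8 genes in the list of ligand regulation besides the members, 5 were listed at 0, among them the insulin genes Ins1 and Ins2, and only H19 passed the filter on the mean. The IGF2 mRNA-binding proteins, which guard the Igf2 transcript in the embryo, were scarce. Igf2bp1 had 9 cornea and 94 limbus reads, a log2 ratio of 3.48 (2.49 to 4.65), and Igf2bp2 had 8 and 36, a log2 ratio of 2.27 (1.14 to 3.58).

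Among the insulin-type receptors and adaptors, the limbal side held the larger differences. Of 12 such genes over the filter, 5 were limbal by at least 2-fold and none corneal, with a median log2 ratio of 0.68. Beside this list and all lists below, 18.0% of all genes were limbal and 8.88% corneal by 2-fold. Under scaling to total reads these shares were 20.3% and 5.62%. Among the 5, Grb14 and Sh2b2, at 4.84 and 1.93 normalized cornea reads, passed the filter only through the limbus. Irs1, a docking protein of IGF1R, had 23 cornea and 136 limbus reads, a log2 ratio of 2.66 (2.02 to 3.37). Grb14, an adaptor that restrains the insulin receptor, had 5 and 36 reads, a log2 ratio of 2.94 (1.59 to 4.65). The adaptors with many reads differed little. Gab1 had 1744 cornea and 1393 limbus reads, a log2 ratio of -0.23 (-0.33 to -0.13) that became -0.02 under scaling to total reads. Rack1, listed as Gnb2l1, had 34502 and 30178, and its log2 ratio of -0.10 (-0.12 to -0.08) turned to 0.11 under that scaling.

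The PI3K-AKT-FOXO branch downstream of IGF1R stood on both sides. Of 27 genes, 2 were limbal and 2 corneal by at least 2-fold, and the median log2 ratio was -0.19. Under scaling to total reads 3 were limbal and none corneal by 2-fold, with a median of 0.01. By counting error alone, 8 were limbal and 17 corneal, and 10 and 10 under scaling to total reads. Of all genes, 36.0% were limbal and 40.5% corneal by counting error, and 47.8% and 29.7% under scaling to total reads. Inpp5d, a phosphatase of blood cells, had 16 cornea and 118 limbus reads, a log2 ratio of 2.98 (2.22 to 3.83). Pik3cd, the kinase subunit of leukocytes, had 48 and 238 reads, a log2 ratio of 2.41 (1.95 to 2.88). These were the only genes of the branch over 2-fold higher in the limbus under the deposited scaling.

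Rictor, a part of the mTOR complex that activates AKT, had 1013 cornea and 466 limbus reads, a log2 ratio of -1.02 (-1.19 to -0.86). Akt1, the gene of the branch with the most normalized reads, had 3649 and 3918 reads, a log2 ratio of 0.20 (0.13 to 0.26). Rictor and Akt1 thus differed in direction.

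**Figure D5:**
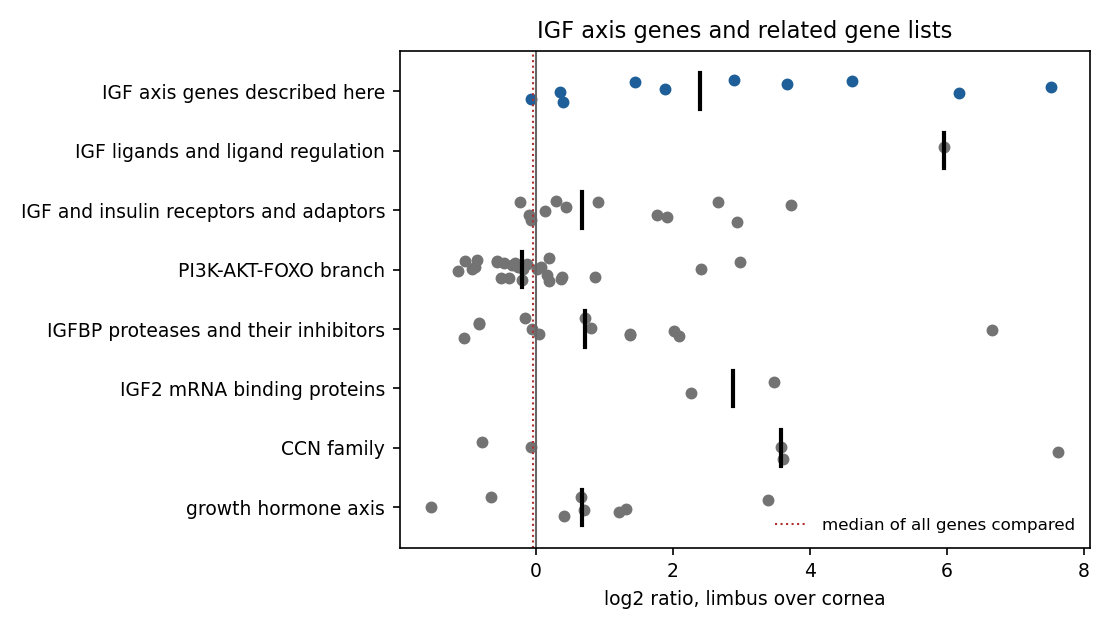
Log2 ratio of limbus over cornea for the 10 members (blue) and for the other genes of each list with a mean of at least 10 (grey), with the median of each list as a black bar and that of all 13932 genes as a dotted line. The members' median of 2.40 lies right of all genes, while the median of the PI3K-AKT-FOXO branch lies at -0.19 (0.01 under scaling to total reads).

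Genes for proteases that cut binding proteins, and for their inhibitors, were mixed. Of 13 over the filter, 5 were limbal and 1 corneal by at least 2-fold, with a median log2 ratio of 0.71, and under scaling to total reads 6 were limbal and none corneal. Htra1, a secreted protease known to cut IGFBPs, had 732 cornea and 2762 limbus reads, a log2 ratio of 2.01 (1.89 to 2.13). Htra3, of the same family, had 90 and 359 reads, a log2 ratio of 2.09 (1.75 to 2.44). Both were thus higher in the limbus beyond counting error. Stc2, an inhibitor of PAPP-A, was the corneal gene at 22 cornea and 10 limbus reads, but the interval of its log2 ratio (-1.04, or -0.84 under scaling to total reads) ran from -2.28 to 0.10. Stc1, the related stanniocalcin, had 1 cornea and 283 limbus reads and passed the filter only through the limbus. With the cornea set to 3 reads its log2 ratio was 6.66 (5.09 to 8.94). Adam9, a membrane protease, had 1566 and 830 reads, a log2 ratio of -0.82 (-0.94 to -0.70). Ctsd, a lysosomal protease and the gene of this list with the most normalized reads, had 14426 and 13077, with a log2 ratio of -0.05 (-0.08 to -0.01) that turned to 0.16 under scaling to total reads. Pappa, the gene for PAPP-A itself, had 2 and 4 reads, too few for a comparison.

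The CCN genes, which share the IGF-binding motif of the binding proteins, ranged from a log2 ratio of -0.79 to 7.62. Of 5 over the filter, 3 were limbal by at least 2-fold and none corneal, with a median log2 ratio of 3.58. Among the 3, Ccn5 passed the filter only through the limbus, at 4.84 normalized reads in the cornea. Ccn5, listed as Wisp2, had 5 cornea and 923 limbus reads, a log2 ratio of 7.62 (6.40 to 9.25), and Ccn2, listed as Ctgf, had 155 and 1762, a log2 ratio of 3.60 (3.37 to 3.85). Ccn3, listed as Nov, was higher in the cornea by counting error, at 201 against 109 reads and a log2 ratio of -0.79 (-1.14 to -0.44). Ccn1, listed as Cyr61, had 2448 cornea and 2193 limbus reads, and its log2 ratio was -0.06 (-0.15 to 0.02), or 0.14 under scaling to total reads.

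The growth hormone axis upstream of Igf1 was also mixed. Of 8 genes over the filter, 3 were limbal and 1 corneal by at least 2-fold, with a median log2 ratio of 0.68. Ghr, the growth hormone receptor, was the cornea gene, with 2852 cornea and 928 limbus reads, a log2 ratio of -1.52 (-1.63 to -1.42). Jak2, the kinase bound to that receptor, had 1891 and 1129 reads, a log2 ratio of -0.65 (-0.76 to -0.54). The feedback inhibitors were on the other side. Socs3 had 19 and 187 reads, a log2 ratio of 3.39 (2.71 to 4.16), and Socs2 had 32 and 75, a log2 ratio of 1.32 (0.71 to 1.97).

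Genes of other cell types also differed between the libraries. Of 18 cell type lists, 17 had a higher summed level in the limbus, 13 of them by at least 2-fold and 8 by at least 8-fold. The corneal epithelium list was the exception, with a limbal sum 0.443 times that of the cornea and 1 of its 8 genes at least 2-fold higher in the limbus. The keratocyte list summed to 64191 and 66180 normalized reads (2 of 8 genes limbal and 2 corneal by at least 2-fold), that of the corneal endothelium to 14699 and 22776 (3 of 6 limbal, none corneal), and that of the ciliary body and iris to 4717 and 7375 (2 of 6 limbal, none corneal).

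Vessel genes were low in the cornea library. The sum over 10 genes of blood vessel endothelium went from 250 to 4307 normalized reads, with 9 of 10 at least 2-fold higher. Pecam1 and Cdh5, which define that cell type, had 6 and 3 reads in the cornea. Together with Tek, Emcn, Esam, Egfl7 and Cldn5, at no more than 8.71 normalized cornea reads, they passed the filter only through the limbus. The gene under 2-fold was Kdr, which held 164 of the 250 normalized cornea reads and had a log2 ratio of 0.81 (0.52 to 1.09). The lymphatic list went from 43.5 to 847 with all 5 genes over the filter at least 2-fold higher, and the smooth muscle and pericyte list from 381 to 3652 with 9 of 9. Fibroblast genes went from 17685 to 41571 with 6 of 8 at least 2-fold higher. The other 2, Pdgfra and Dpt, were higher in the cornea by counting error, with log2 ratios of -0.45 and -0.58.

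Lists of neighboring eye tissues and of other cell types were higher in the limbus too. Skeletal muscle genes went from 487 to 12623 normalized reads (9 of 9 genes over the filter at least 2-fold higher), photoreceptor genes from 659 to 6361 (8 of 8), lens genes from 1319 to 11807 (7 of 8) and trabecular meshwork genes from 215 to 2403 (3 of 4). Conjunctival epithelium genes went from 39346 to 248215 (6 of 6), although Muc5b of its goblet cells was listed at 0. Melanocyte genes went from 309 to 1668 (5 of 5), macrophage genes from 747 to 3177 (7 of 8), leukocyte genes from 450 to 4312 (5 of 5) and Schwann cell genes from 5004 to 8454 (5 of 7). The lacrimal and meibomian list had 1 gene over the filter, Lyz2, which held 233 of its summed 247 and 1080 of its summed 1107 normalized reads. The other genes of that list were listed at 0 or had at most 11 reads in a library. Its place among the lists at least 2-fold higher therefore rests on Lyz2 alone. The part of any of these lists in the members' limbal values was not tested.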

How the data were processed

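RNA from pooled limbal rims and corneal buttons was sequenced as stranded total RNA in paired-end reads. Per the study's methods the authors used CLC Genomics Workbench to trim adaptors and to map to GRCm38 (mm10), and normalized by TMM, the trimmed mean of M-values. The rule by which reads were counted and the use of strand are not given in the sources used here. The deposited comparison is labelled deseq, without a version or settings. Whether its size factors come from TMM is not given.

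The authors deposited 1 comparison table of 40904 rows, of which 23420 name a gene. For each gene the authors deposited the mean normalized signal over the libraries, in which each library's reads are divided by its size factor. They also deposited p-values and a log2 fold change with an error. The deposited log2 fold change and this error were used only to tell which whole reads of the 2 libraries a mean stands for, and no value of these comparison columns is given. With 1.03 (cornea) and 0.967 (limbus) as size factors, all 17442 means above 0 could be written as whole reads. The mean alone allowed several pairs for 11299 genes, and the pair whose predicted standard error came closest was taken. For 93 genes pairs could not be told apart by this error, and the pair with the lowest dispersion, the spread beyond counting error, was taken. For 41 genes the fold change was too near 0 for this step. There the pair whose log2 ratio was nearest to the deposited fold change was taken. For each of the 10 members the next best pair missed the standard error by at least 347 times as much. Read numbers are therefore derived values. The method was also run on simulated data whose standard errors came from the same formula. That run could not test whether the deposited values follow the formula.

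Ratios are limbus over cornea of normalized reads, with 95% intervals from the limbal share by the exact Clopper-Pearson method. These cover counting error only, and PCR duplicates are not independent molecules. A library under 3 reads was set to 3 reads. Counts of genes used a mean of at least 10, without a test. Depth was 26104317 reads over named genes in the cornea and 21182025 in the limbus. The accession column was out of step with the symbols (2 of 18556 accessions found in RefSeq belonged to the symbol of the row), so rows were matched by symbol alone. Positions and lengths came from GENCODE for GRCm38 and promoters from RefSeq. Other scalings, a pseudocount, other filters and another length were tried. Members and gene lists were chosen with earlier results of these data known. Genes named besides the members were, in each list, those with the 2 highest and 2 lowest ratios among genes above 3 reads in both libraries, and the one with the most normalized reads. Pappa, Ins1, Ins2, Igfbp1, Polr2b and the marker genes were named for their role, and Stc1 after its values were seen. The values of 1 gene under this rule are not reported here. Calculations used Python 3.11.15, numpy 2.4.6, pandas 2.3.3, scipy 1.17.1 and matplotlib 3.10.9.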

Additional observations from a re-analysis of the deposited data

How the results depend on the processing

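The 7 members at least 2-fold higher in the limbus and the count of 0 in the cornea held under scaling to total reads, a trimmed mean of M-values, a pseudocount of 1, a mean of at least 50 and no filter. At 1.5-fold 7 members were limbal and at 4-fold 5. Of all genes, 14.3% had a higher ratio than Igfbp2, the lowest of the 7, and 6.74% a higher ratio than Igf2, the lowest of the 5. The shares of all genes past 1.5-fold and 4-fold themselves were not computed. They lie between these values and the shares above the next member below each fold, 28.7% for Igfbp5 and 11.8% for Igfbp4. Scaling to total reads added 0.21 to every log2 ratio and brought the median of all genes to 0.17. It moved the limbal share of all genes higher on either side by counting error from 47.1% to 61.7%. It also placed all 10 members on the limbal side, beside 47.8% of all genes by counting error. At least 2-fold higher in the limbus were then 20.3% of all genes. The trimmed mean of M-values raised log2 ratios by 0.02. A pseudocount of 1 lowered the log2 ratios of the scarce genes, to 7.28 for Igfbp6, 5.90 for Igfbp3 and 3.55 for Igf1.

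The direction of the members rests on the deposited comparison columns, which were used to pick the pair of reads, and not on the mean alone. The pair with the lowest limbal ratio that the mean alone allows gave log2 ratios of -1.95 for Igf1, -4.69 for Igf2, -4.86 for Igf2r, -10.10 for Igfbp2, -3.33 for Igfbp3, -6.31 for Igfbp4, -7.23 for Igfbp5, -8.42 for Igfbp6 and -5.24 for Igfbp7. These pairs ignore the comparison columns by construction, and their direction is opposite to that of the deposited fold change. With the longest transcript as length, Igfbp2 made up 84.1% (cornea) and 74.8% (limbus) of the binding proteins, and the log2 level of Igf1r over Igf2r in the limbus turned from -0.40 to 0.093. No paired analysis was possible because the table used here has no column per numbered sample, and neither the replicate block nor leaving out replicates was run. Depth limits Igf1, Igfbp3 and Igfbp6 most, with 11, 5 and 6 reads in the cornea.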
